A study of Homo sapiens with 3 samples.

Results

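The FOXO transcription factors FOXO1, FOXO3 and FOXO4 and 27 genes known as their targets were examined in GFP-SAS cells, which derive from the human tongue carcinoma cell line SAS. These 30 genes were a list chosen, with earlier results of these data known, out of 18239 genes on the array. Shares of members set beside shares of all genes are thus descriptions and not independent evidence. Of the 30, 26 were bright enough for the comparisons, against 12779 genes in all. The groups were cells given siAkt1-22, cells given siAkt1-58 and cells given siNT, a non-targeting control, each siRNA at 10 nM for 24 h. Each siRNA was measured in 1 library on an Affymetrix expression array, and the labels give both siAkt1 libraries the same genotype, knockdown of Akt1. All 3 groups carry the GFP of the line name and received an siRNA, and none was left untreated. The labels do not say whether the libraries came from separate cultures, so p-values measure the spread between these libraries alone.

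FOXO proteins are forkhead transcription factors that act at the end of the insulin and growth factor pathway. AKT kinases phosphorylate them, which holds them in the cytoplasm bound to adaptor proteins. When AKT activity is low they enter the nucleus and are known to raise genes for growth arrest, oxidant defence, protein breakdown and feedback on insulin signalling. The arrays measure mRNA in bulk, so neither phosphorylation nor location of the FOXO proteins was measured, and fewer cells expressing a gene cannot be told apart from less of its RNA per cell.

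Values are deposited log2 expression values of the brightest probe set annotated to a gene alone, and differences are siAkt1 minus siNT on that scale, where 1 is a 2-fold change. A value of 3.93, the 30th percentile over genes, was the level below which a gene was held too dim to compare. AKT1 mRNA, the target, read 3.67 with siAkt1-22 and 3.47 with siAkt1-58, against 6.75 with siNT, and the difference in a dimmer AKT1 probe set was -1.23 with siAkt1-22 and -1.29 with siAkt1-58. AKT2, the related kinase that also acts on FOXO proteins, read 6.74 with siAkt1-22 and 7.69 with siAkt1-58, against 7.71 with siNT. AKT1 was thus low in both siAkt1 libraries, and AKT2 was lower with siAkt1-22 by 0.97 and nearly level with siAkt1-58 (-0.02). The next brightest AKT2 probe set gave -2.01 with siAkt1-22 and -0.01 with siAkt1-58. Dimmer AKT2 probe sets lay between -0.17 and 0.07 with siAkt1-22, so the size of the AKT2 difference is uncertain. Of 14 epithelial markers, 9 were annotated to a probe set of their own. The basal keratin KRT5 read from 9.16 to 10.03 and the epithelial adhesion molecule EPCAM from 11.29 to 11.67, while the keratin KRT14 was dim in every library (3.65 to 3.67). The leukocyte gene PTPRC read 2.89 and the fibroblast gene COL3A1 2.93 in all 3 libraries, and 3 of 8 annotated leukocyte markers and 1 of 7 fibroblast markers passed the filter. Of these, the fibroblast marker PDGFRB read 4.33 in every library, and the leukocyte marker CD68 read 6.75 with siAkt1-22 and 7.14 with siAkt1-58, against 6.33 with siNT. The leukocyte markers CSF1R and CD79A read from 4.28 to 4.46. Of 7 endothelial markers, 3 passed the filter. They were PECAM1 (4.50), VWF (4.40) and TIE1 (5.12), each with the same value in all 3 libraries. Spiked poly-A control probe sets had a median difference of -0.56 with siAkt1-22 and -0.01 with siAkt1-58 (24 probe sets), so the siAkt1-22 library departed from siNT in RNA added to the samples as well. The part of that departure, or of CD68, in the differences below was not tested.

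With siAkt1-22, 5 of the 26 FOXO genes were at least 2-fold higher than siNT (FBXO32, SOD2, CITED2, BCL6 and GADD45B), or 19.2%, beside 4.40% of all genes tested. Another 3 were at least 2-fold lower (RBL2, TRIB2 and TRIB1), or 11.5%, beside 5.97% of all genes. With siAkt1-58 no member was at least 2-fold higher (background 1.54%) and only GADD45B was at least 2-fold lower (3.85%, background 3.58%). No member passed the 2-fold limit in the same direction with both siRNAs, where 0.736% of all genes were higher and 1.17% lower. The median difference of the 26 genes was 0.47 with siAkt1-22 and 0.09 with siAkt1-58, against a median of 0 for all genes tested with either siRNA. Without regard to size, 20 of the 26 were above siNT with siAkt1-22 (76.9%, background 48.5%) and 6 below (23.1%, background 35.7%). With siAkt1-58, 15 were above (57.7%, background 45.6%) and 10 below (38.5%, background 37.0%). In all, 14 were above siNT with both siRNAs (53.8%, background 30.9%), 5 were below with both (19.2%, background 21.4%) and 6 lay on opposite sides (23.1%, background 25.6%). Of all genes tested, 22.1% were equal to siNT with at least one siRNA, against 3.85% of the members (PIK3IP1). Such ties lower the background shares above and below siNT, so members and background are not set side by side on equal terms. Both differences from siNT share that library, so an error in it moves them together.

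**Figure D1:**
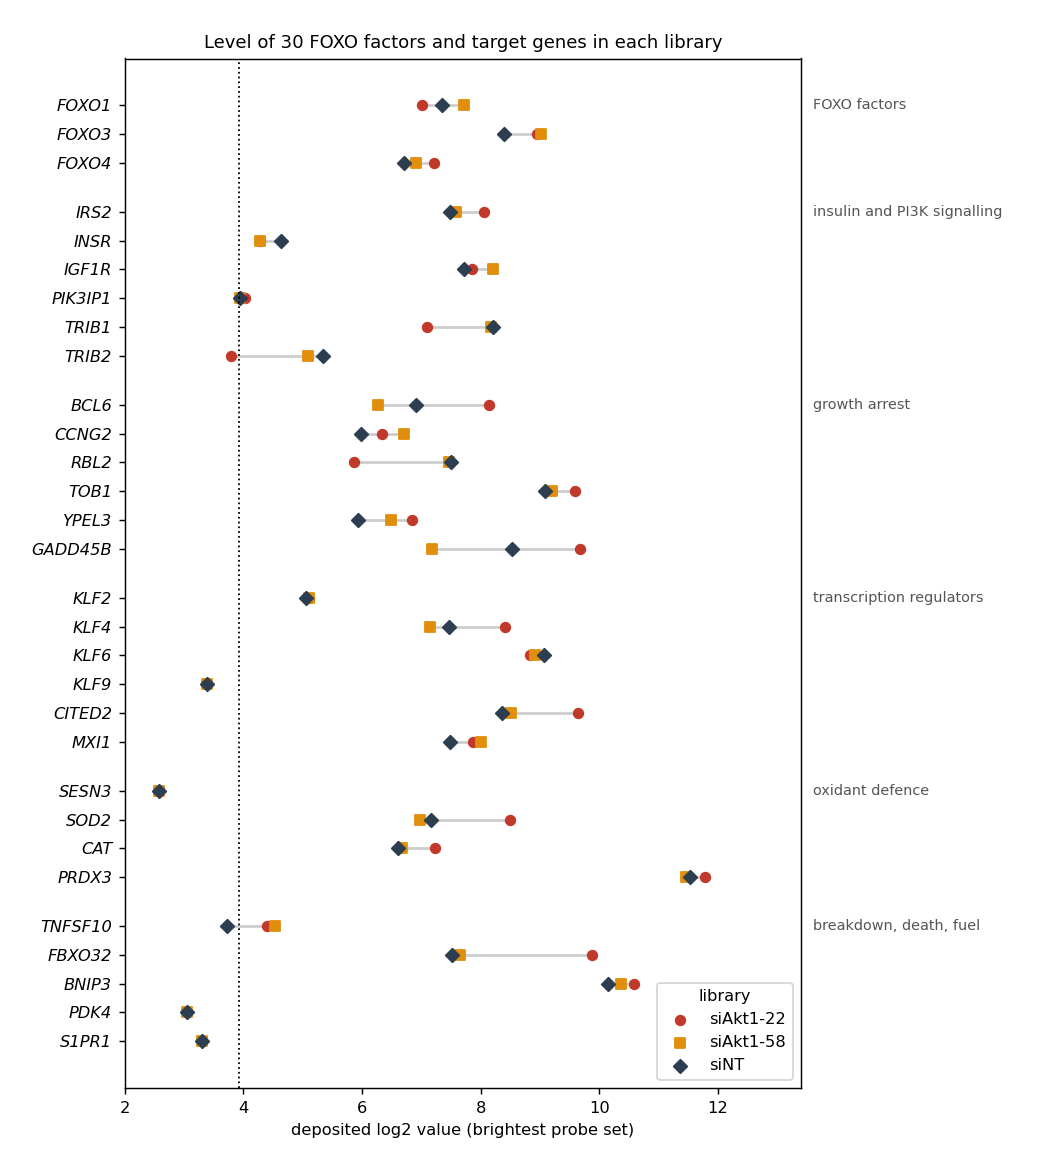
Deposited log2 value of each of the 30 genes (rows, grouped by role at right) with siAkt1-22 (circles), siAkt1-58 (squares) and siNT (diamonds), 1 library each. Grey lines span the 3 values, the dotted line is the filter level of 3.93, and equal values lie on top of each other. FBXO32, SOD2 and CITED2 are high with siAkt1-22 alone, RBL2 and TRIB1 are low with siAkt1-22 alone, and FOXO3, TNFSF10 and YPEL3 are higher with both siRNAs than with siNT.

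Limma's moderated test set the siAkt1 group against siNT, with Benjamini-Hochberg adjustment over all 12779 genes. No member passed at an adjusted p of 0.05, and no gene on the array did (0 of 12779), with a lowest adjusted p of 0.607. At an unadjusted p under 0.05, limma counted 3 of 26 members (INSR, FOXO3 and TNFSF10) beside 7.47% of all genes. The fit has 1 residual degree of freedom, and its spread is that between the siAkt1 libraries, so a gene that answered to only one of the siRNAs has a large error by construction. With 1 library for each siRNA, no difference between a single siRNA and siNT has a test.

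Among the FOXO factors themselves, FOXO3 mRNA was higher with both siRNAs. It read 8.94 with siAkt1-22 and 9.02 with siAkt1-58, against 8.39 with siNT, a mean difference of 0.59 ± 0.05 (SD, n = 2 siAkt1 libraries). Its siAkt1 values lay close together and apart from siNT. All 8 probe sets that read FOXO3, including 5 that also match its near-identical copy FOXO3B, were above siNT with both siRNAs. Their differences ran from 0.46 to 0.71 with siAkt1-22 and from 0.38 to 0.71 with siAkt1-58. Because of that copy, reads of the shared probe sets cannot be assigned to one of the genes. Limma gave FOXO3 an unadjusted p of 0.0226 and an adjusted p of 0.614.

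FOXO4 read 7.21 with siAkt1-22 and 6.91 with siAkt1-58, against 6.70 with siNT. It was thus higher by 0.50 and 0.20, and no probe set of FOXO4 above the filter level was below siNT. With siAkt1-58, however, only 3 of those 6 probe sets were above siNT and 3 were equal to it. Averaged over its probe sets, FOXO4 differed by 0.25 with siAkt1-22 and 0.05 with siAkt1-58. FOXO1 read 7.01 with siAkt1-22 and 7.72 with siAkt1-58, against 7.35 with siNT. The siNT value of FOXO1 lay between those of the siAkt1 libraries, and its dimmer probe set read 6.22 with siAkt1-22 and 6.55 with siAkt1-58, against 6.22 with siNT. None of the 3 factors was 2-fold from siNT in any library.

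The FOXO consensus letters GTAAACA were searched on both strands of RefSeq promoter windows (GRCh38.p14, 250 bases before to 50 after each annotated start). Windows were found for 28 of the 30 members, and not for FBXO32 and TRIB1. The letters were present in 5 of these 28 genes (17.9%), namely FOXO4, YPEL3, MXI1, TRIB2 and PIK3IP1, beside 4.19% of all 27305 genes with a window. The windows of YPEL3, MXI1 and FOXO4 are shown because these genes were above siNT with both siRNAs, and that of TRIB2 because it was below. TXNIP, a further FOXO target described later, is shown as the gene at least 2-fold higher with both. Letters in capitals mark GTAAACA or its reverse complement TGTTTAC, and each window is printed 5′ to 3′ on the strand of its gene.
YPEL3, chr16:30096164-30096463, strand -: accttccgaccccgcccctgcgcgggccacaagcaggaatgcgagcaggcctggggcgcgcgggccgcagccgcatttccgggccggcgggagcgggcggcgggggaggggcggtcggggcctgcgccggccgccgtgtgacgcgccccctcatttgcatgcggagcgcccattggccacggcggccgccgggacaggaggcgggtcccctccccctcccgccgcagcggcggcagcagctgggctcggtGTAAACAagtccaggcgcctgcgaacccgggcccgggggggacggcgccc
MXI1, chr10:110209981-110210280, strand +: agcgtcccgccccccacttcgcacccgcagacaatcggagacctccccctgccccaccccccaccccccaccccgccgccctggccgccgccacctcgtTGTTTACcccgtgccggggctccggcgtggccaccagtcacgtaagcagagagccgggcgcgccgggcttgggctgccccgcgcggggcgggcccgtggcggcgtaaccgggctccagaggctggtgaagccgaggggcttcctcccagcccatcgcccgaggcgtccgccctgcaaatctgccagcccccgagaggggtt
MXI1, chr10:110225746-110226045, strand +: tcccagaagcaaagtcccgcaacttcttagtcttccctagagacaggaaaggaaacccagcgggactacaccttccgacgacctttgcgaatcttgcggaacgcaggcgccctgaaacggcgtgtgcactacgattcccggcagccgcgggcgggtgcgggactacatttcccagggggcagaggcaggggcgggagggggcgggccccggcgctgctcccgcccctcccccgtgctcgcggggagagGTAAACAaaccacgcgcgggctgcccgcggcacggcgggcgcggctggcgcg
FOXO4, chrX:71095601-71095900, strand +: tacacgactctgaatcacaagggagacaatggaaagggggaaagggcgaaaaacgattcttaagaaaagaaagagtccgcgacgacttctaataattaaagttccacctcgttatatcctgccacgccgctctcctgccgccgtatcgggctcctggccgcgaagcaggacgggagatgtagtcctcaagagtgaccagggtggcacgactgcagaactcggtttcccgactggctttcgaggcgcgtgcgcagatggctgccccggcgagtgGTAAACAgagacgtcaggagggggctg
TRIB2, chr2:12716686-12716985, strand +: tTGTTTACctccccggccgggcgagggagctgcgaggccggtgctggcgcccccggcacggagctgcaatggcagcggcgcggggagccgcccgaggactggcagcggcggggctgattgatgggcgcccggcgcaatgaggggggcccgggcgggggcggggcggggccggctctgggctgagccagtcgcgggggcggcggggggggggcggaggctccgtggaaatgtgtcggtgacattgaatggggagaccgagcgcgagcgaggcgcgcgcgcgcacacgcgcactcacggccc
TXNIP, chr1:145996530-145996829, strand -: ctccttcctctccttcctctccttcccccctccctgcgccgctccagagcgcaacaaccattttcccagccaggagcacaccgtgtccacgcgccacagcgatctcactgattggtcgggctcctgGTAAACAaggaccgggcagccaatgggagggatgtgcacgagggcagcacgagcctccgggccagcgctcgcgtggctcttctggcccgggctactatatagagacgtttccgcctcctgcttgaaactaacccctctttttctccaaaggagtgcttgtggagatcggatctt
In YPEL3 the letters begin at the annotated start itself, and in FOXO4 at position 24 counted from the start as 1. They lie 124 bases before the start in TXNIP and 249 bases before it in TRIB2. MXI1 has them 151 bases before one start and 2 bases before another. The match describes these windows and is not a measured binding site. Over all genes tested with a window, 34.4% of the 363 that hold the letters were above siNT with both siRNAs, against 31.5% of the 10051 that do not, and the median difference was 0 in each set with either siRNA.

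Of the 6 growth arrest genes, 3 were above siNT with both siRNAs (YPEL3, CCNG2 and TOB1), 1 was below with both (RBL2) and 2 lay on opposite sides (BCL6 and GADD45B). YPEL3, which encodes a small zinc-binding protein linked to growth arrest and senescence, read 6.84 with siAkt1-22 and 6.49 with siAkt1-58, against 5.94 with siNT. Both siAkt1 values were above siNT, by 0.91 and 0.55, and the other YPEL3 probe sets gave wider differences (1.64 and 0.76, and 1.62 and 0.71). CCNG2, an unconventional cyclin associated with cell cycle arrest, read 6.34 with siAkt1-22 and 6.70 with siAkt1-58, against 5.99 with siNT. All 4 CCNG2 probe sets above the filter level were above siNT with both siRNAs. TOB1, an antiproliferative adaptor of mRNA deadenylation, was higher by 0.52 with siAkt1-22 and by 0.13 with siAkt1-58.

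GADD45B, a stress-induced regulator of kinase signalling and DNA repair, moved in opposite directions. It read 9.68 with siAkt1-22 and 7.18 with siAkt1-58, against 8.53 with siNT, so it was 2.22-fold higher with siAkt1-22 and 2.54-fold lower with siAkt1-58. Between the siRNAs GADD45B differed 5.64-fold, number 29 of 12779 genes ranked by siAkt1-22 minus siAkt1-58. Its dimmer probe sets gave 1.26 and -0.90 or 0.40 and -0.41, and one read 5.00 in every library. With its probe sets averaged GADD45B was at 0.70 and -0.66, short of 2-fold. Of all genes tested, 0.172% were at least 2-fold from siNT on opposite sides with the siRNAs.

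BCL6, a transcriptional repressor that FOXO factors are known to induce, followed the same order. It read 8.14 with siAkt1-22 and 6.26 with siAkt1-58, against 6.90 with siNT. All 4 BCL6 probe sets above the filter level were above siNT with siAkt1-22 (0.59 to 1.24) and below it with siAkt1-58 (-0.86 to -0.17). RBL2, a pocket protein of the retinoblastoma family that holds cells in quiescence, was low in one library. It read 5.86 with siAkt1-22 and 7.46 with siAkt1-58, against 7.51 with siNT, a 3.13-fold lower value with siAkt1-22. Other RBL2 probe sets gave -1.27 and -1.37 with siAkt1-22, and the dimmest above the filter level gave -0.06. With siAkt1-58 the same probe sets gave 0.20, 0.10 and 0, so RBL2 had no clear side there.

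**Figure D2:**
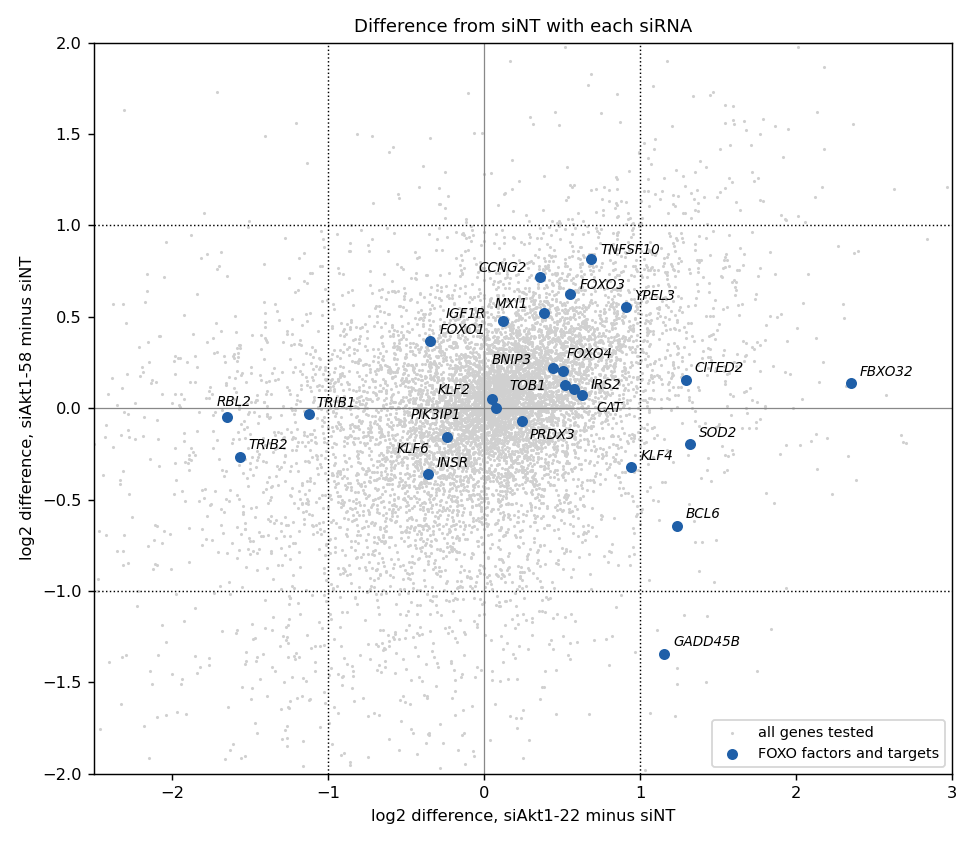
Log2 difference from siNT with siAkt1-22 (horizontal) and siAkt1-58 (vertical) for the 26 FOXO genes above the filter level (blue, named) and all 12779 genes tested (grey, with 120 outside the axes). Dotted lines mark 2-fold. No blue point lies beyond 2-fold on the same side with both siRNAs, FBXO32 lies farthest right at 2.35, and GADD45B lies beyond 2-fold on opposite sides.

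Genes of protein breakdown and cell death held the widest difference. FBXO32 encodes atrogin-1, a muscle atrophy F-box protein that directs substrates to ubiquitination and is a classic FOXO target in muscle. It read 9.87 with siAkt1-22 and 7.66 with siAkt1-58, against 7.52 with siNT. That is 5.10-fold higher with siAkt1-22, number 17 of 12779 genes, and 1.10-fold higher with siAkt1-58. FBXO32 has 1 probe set annotated to it, so no other one checks this value. TNFSF10, the death ligand TRAIL, was dim but higher with both siRNAs, at 4.40 with siAkt1-22 and 4.53 with siAkt1-58, against 3.72 with siNT. Its differences of 0.68 and 0.82 made TNFSF10 the one member at least 1.5-fold higher with both, where 3.20% of all genes were. Its siNT value lay below the filter level. Other TNFSF10 probe sets, dimmer still, gave 0.09 and 0.60, and 0.29 and 1.17.

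TNFSF10 is also known as an interferon-induced gene. Of 15 interferon-stimulated genes tested, 10 were at least 2-fold higher with siAkt1-22 (66.7%, beside 4.40% of all genes). With siAkt1-58, 2 were (IRF9 and OAS1), or 13.3%, beside 1.54% of all genes. The list's medians were 1.24 with siAkt1-22 and 0.08 with siAkt1-58. The part of interferon signalling in the TNFSF10 and SOD2 values was not tested. BNIP3, a mitochondrial receptor for mitophagy, read 10.59 with siAkt1-22 and 10.38 with siAkt1-58, against 10.15 with siNT. BNIP3 is known as a hypoxia gene too. Of 15 other hypoxia genes tested, 4 (26.7%) were at least 2-fold lower with siAkt1-22 (PDK1, SLC2A1, BNIP3L and EGLN1), beside 5.97% of all genes. None was 2-fold from siNT with siAkt1-58, where 1.54% of all genes were higher and 3.58% lower. The medians of these 15 were -0.17 with siAkt1-22 and 0.11 with siAkt1-58.

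Among oxidant defence genes, SOD2, the mitochondrial manganese superoxide dismutase, read 8.49 with siAkt1-22 and 6.97 with siAkt1-58, against 7.17 with siNT. It was 2.49-fold higher with siAkt1-22 and 1.15-fold lower with siAkt1-58. The difference was smaller in the other SOD2 probe sets above the filter level, at 0.12 and 0.59 with siAkt1-22, and the average over all its probe sets was 0.51. CAT, the peroxisomal catalase, read 7.24 with siAkt1-22 and 6.68 with siAkt1-58, against 6.61 with siNT. PRDX3, a mitochondrial peroxiredoxin and the brightest member, read 11.78 with siAkt1-22 and 11.46 with siAkt1-58, against 11.54 with siNT. Its brightest probe set was thus within 0.25 of siNT, and its other one gave 0.39 with siAkt1-22 and -0.01 with siAkt1-58. SOD2, CAT and, by less, PRDX3 were thus highest in the siAkt1-22 library, while with siAkt1-58 the brightest probe sets of all 3 enzymes were within 0.20 of siNT. With siAkt1-58 the other SOD2 probe sets gave -0.51 and -0.53, and the average over all its probe sets was -0.32.

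The transcription regulators followed more than one pattern. CITED2, a coactivator-binding protein that limits hypoxia signalling, read 9.65 with siAkt1-22 and 8.51 with siAkt1-58, against 8.35 with siNT. It was 2.45-fold higher with siAkt1-22, and another CITED2 probe set gave 0.88 with siAkt1-22 and -0.02 with siAkt1-58. KLF4, a Krüppel-like factor of epithelial differentiation, read 8.42 with siAkt1-22 and 7.15 with siAkt1-58, against 7.47 with siNT. Like BCL6 and GADD45B it was above siNT in one siAkt1 library and below it in the other. MXI1, an antagonist of MYC at E-box sites, was higher with both siRNAs, at 7.87 with siAkt1-22 and 8.004 with siAkt1-58, against 7.48 with siNT. All 3 MXI1 probe sets above the filter level were above siNT with both. KLF6, a growth-restraining relative, was lower by 0.24 and 0.16, which its other probe sets above the filter level shared. KLF2, known for its part in endothelial and T cell quiescence, differed by 0.05 and 0.05, and its other probe set by -0.19 and -0.19.

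The insulin and PI3K signalling genes showed no common direction. IRS2, an adaptor of the insulin and IGF receptors that FOXO factors are known to raise in feedback, read 8.06 with siAkt1-22 and 7.58 with siAkt1-58, against 7.48 with siNT. Both IRS2 probe sets were above siNT with each siRNA. IGF1R, the IGF1 receptor, was higher by 0.12 with siAkt1-22 and by 0.47 with siAkt1-58, but its probe sets disagreed, and one gave -0.27 and -1.06. INSR, the insulin receptor, was dim and slightly lower with both, at 4.27 with siAkt1-22 and 4.27 with siAkt1-58, against 4.64 with siNT. Its siAkt1 values were exactly equal, which gave INSR the lowest p of the members (unadjusted p of 0.0096, adjusted p of 0.607 by limma). Exact ties arise often in these files and are no measure of precision.

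TRIB1 and TRIB2 are pseudokinases that bind ubiquitin ligases, and TRIB2 is known as a repressor of FOXO proteins. TRIB2 read 3.78 with siAkt1-22 and 5.08 with siAkt1-58, against 5.35 with siNT. TRIB1 read 7.09 with siAkt1-22 and 8.18 with siAkt1-58, against 8.21 with siNT. Both genes were thus low in the siAkt1-22 library, 2.96-fold for TRIB2 and 2.17-fold for TRIB1, and near siNT with siAkt1-58. The siAkt1-22 value of TRIB2 lay below the filter level, so the size of its difference is uncertain. Their dimmer probe sets gave -0.44 for TRIB2 and -0.60 for TRIB1 with siAkt1-22. PIK3IP1, an inhibitor of PI3K, lay just inside the filter level at 4.02 with siAkt1-22 and 3.95 with siAkt1-58, against 3.95 with siNT.

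The 4 members below the filter level were SESN3, a sestrin that restrains mTORC1, KLF9, the pyruvate dehydrogenase kinase PDK4 and the sphingosine phosphate receptor S1PR1. They read 2.58, 3.39, 3.05 and 3.31 in that order, each with the same value in all 3 libraries. At that brightness nothing can be said of a difference.

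**Figure D3:**
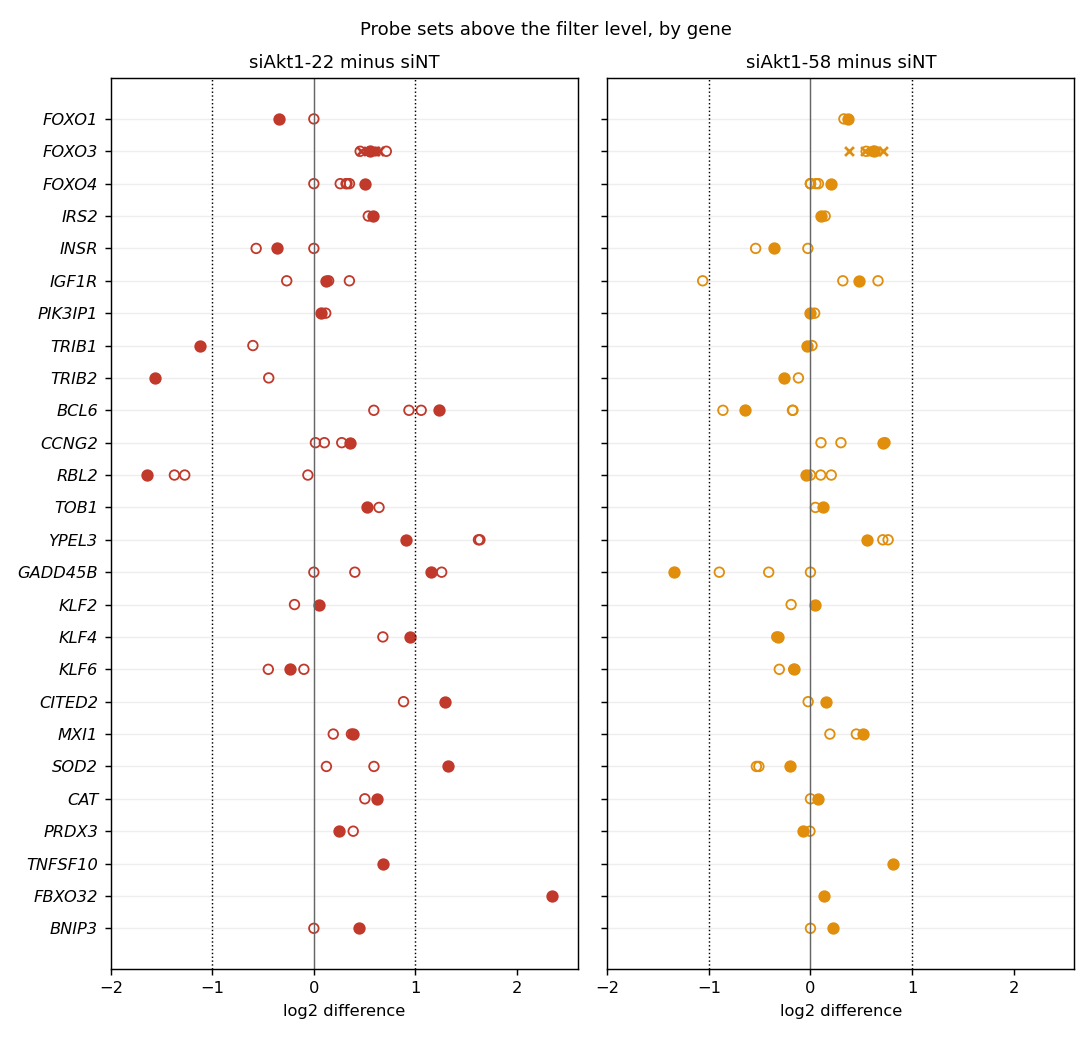
Log2 difference from siNT of every probe set above the filter level for each member, with siAkt1-22 at left and siAkt1-58 at right. Filled circles are the brightest probe sets that stand for the genes, open circles the others, and crosses the probe sets shared by FOXO3 and FOXO3B. The FOXO3 and YPEL3 probe sets lie right of 0 with both siRNAs, those of BCL6 lie right of 0 with siAkt1-22 and left with siAkt1-58, and those of IGF1R are split.

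The other probe sets serve as a check on the brightest one. Of 24 members with another probe set above the filter level, these numbered 44, and with siAkt1-22 they lay on the same side of siNT as the brightest in 37 cases, on the other side in 2 and level with siNT in 5. With siAkt1-58, 30 lay on the same side, 6 on the other side and 7 level with siNT, and PIK3IP1, with a difference of 0, had no side to share. The probe sets on the other side with siAkt1-22 were of IGF1R and KLF2. None belonged to the 8 members at least 2-fold from siNT with siAkt1-22, of which FBXO32 has no other probe set. With siAkt1-58 those on the other side were of RBL2 (2) and of CITED2, TRIB1, IGF1R and KLF2 (1 each). The brightest probe sets of RBL2, CITED2 and TRIB1 differed from siNT by -0.05, 0.16 and -0.03 with siAkt1-58.

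The siAkt1 libraries were then set against each other, a difference in which siNT plays no part. With siAkt1-22, 6 of the 26 members were at least 2-fold higher than with siAkt1-58 (GADD45B, FBXO32, BCL6, SOD2, KLF4 and CITED2), or 23.1%, beside 5.00% of all genes. Another 3 were at least 2-fold lower (RBL2, TRIB2 and TRIB1), or 11.5%, beside 5.28%. The AKT1 values of 3.67 with siAkt1-22 and 3.47 with siAkt1-58 both lay below the filter level, so the AKT1 left by each siRNA cannot be compared at this brightness. With 1 library each, the differences of these 9 genes were not tested.

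Further genes known as FOXO targets, 23 tested of 28 listed, gave 1 at least 2-fold higher with both siRNAs (4.35%, beside 0.736% of all genes) and 2 at least 2-fold lower with both (8.70%, beside 1.17%). TXNIP, a thioredoxin-binding protein that limits glucose uptake, read 7.96 with siAkt1-22 and 7.65 with siAkt1-58, against 5.79 with siNT. The D cyclins are genes that FOXO factors are known to repress. CCND1 read 9.70 with siAkt1-22 and 8.90 with siAkt1-58, against 10.86 with siNT, and all 4 of its probe sets were lower with both siRNAs by at least 1.03. CCND2 read 3.53 with siAkt1-22 and 7.25 with siAkt1-58, against 8.55 with siNT. Its siAkt1-22 value lay below the filter level, so the size of that difference is uncertain. Another CCND2 probe set gave -2.05 with siAkt1-22 and -1.08 with siAkt1-58, and the dimmest gave -0.10 with each. That TXNIP, CCND1 and CCND2 each kept to one side of siNT follows from the rule that named them.

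With siAkt1-22, 6 of the 23 further targets were at least 2-fold higher (26.1%, beside 4.40% of all genes). Another 2, CCND1 and CCND2, were at least 2-fold lower (8.70%, beside 5.97%). The 6 were TXNIP, CDKN1A, the autophagy gene GABARAPL1 (2.12 and 0.39), the receptor ERBB3 (1.66 and 0.37), the proapoptotic BBC3 (1.20 and 0.20) and ULK1. The autophagy kinase ULK1 (1.01 and 0.73) is named to complete this count. CDKN1A, the CDK inhibitor p21, was higher with both, by 1.27 and 0.93. With siAkt1-58 alone, the mTORC1 restraint DDIT4 was higher (-0.29 with siAkt1-22 and 1.20 with siAkt1-58) and the glutamine synthetase GLUL lower (0.37 and -1.52). The medians of these 23 genes were 0.35 with siAkt1-22 and 0 with siAkt1-58. HBP1, BTG1 and BCL2L11 also hold GTAAACA in a promoter window and are named for that reason, after their values were seen. HBP1 was higher by 0.86 and 0.49 and BTG1 by 0.69 and 0.57, while BCL2L11 was at -0.35 and -0.27.

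Regulators of FOXO proteins, 31 tested of 35 listed, had medians of -0.18 with siAkt1-22 and -0.31 with siAkt1-58. Of these, 3 were at least 2-fold lower with both siRNAs (9.68%, beside 1.17% of all genes) and none at least 2-fold higher (beside 0.736%), and AKT1 is one of the 3. SKP2, a ubiquitin ligase subunit known to mark FOXO1 for degradation, read 4.30 with siAkt1-22 and 3.92 with siAkt1-58, against 5.55 with siNT. MDM2, another ubiquitin ligase that can act on FOXO proteins and is better known for p53, read 5.69 with siAkt1-22 and 6.002 with siAkt1-58, against 7.18 with siNT. Both ligases were low in each siAkt1 library, and the siAkt1-58 value of SKP2 lay just below the filter level. The other MDM2 probe sets ran from -1.65 to 0 with siAkt1-22 and from -1.32 to 0 with siAkt1-58, so the size of the MDM2 difference is uncertain. SGK1, a kinase related to AKT that also phosphorylates FOXO3, read 9.37 with siAkt1-22 and 6.25 with siAkt1-58, against 8.50 with siNT, and all 4 of its probe sets took those sides. The acetyltransferase KAT2B (-2.72 and -0.95) and the casein kinase CSNK1A1 (-2.01 and -0.69) were at least 2-fold lower with siAkt1-22. KAT2B read 3.12 with siAkt1-22, below the filter level, so the size of its difference is uncertain. Of the 12 CSNK1A1 probe sets, 3 were at least 2-fold lower with siAkt1-22 and the rest lay between -0.31 and 0.06. With siAkt1-58 those 3 were lower by less than 2-fold and the rest lay between -0.25 and 0.51, so the CSNK1A1 probe sets disagreed with both siRNAs.

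**Figure D4:**
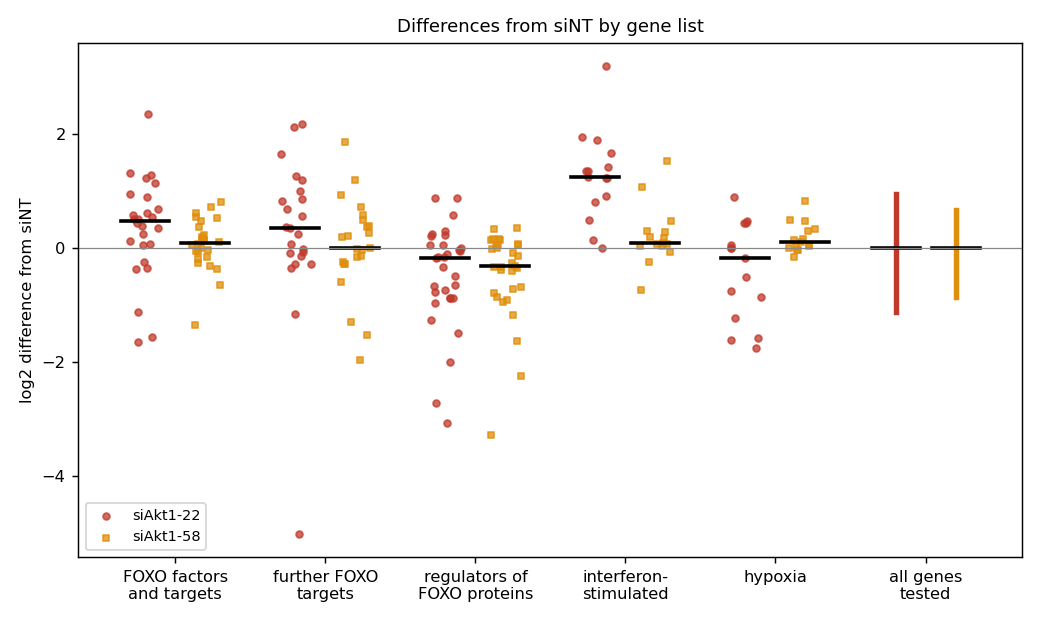
Log2 difference from siNT for the tested genes of 5 lists with siAkt1-22 (circles, left of each pair) and siAkt1-58 (squares, right), with black bars at the medians. Coloured bars at the far right span the 5th to 95th percentile of all 12779 genes, from -1.12 to 0.95 with siAkt1-22 and from -0.85 to 0.67 with siAkt1-58. The medians of the FOXO genes are 0.47 and 0.09, and the interferon-stimulated genes stand highest with siAkt1-22.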

How the data were processed

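Expression was measured in 3 libraries. The authors deposited 1 log2 value per probe set, made with RMA per the submitters' processing notes, with no version or settings stated there. That the scale is log2 rests on the range of the values, 2.20 to 13.4. The number of arrays limits the precision, and detection calls were not used here. Of 49386 probe sets, 45253 carried 1 gene symbol, updated through Entrez identifiers for 45172, while 1327 with several symbols, 2713 unlisted ones and 93 controls were left out. The probe set with the highest mean stood for its gene, and genes whose mean reached the 30th percentile were tested. Ties in RMA's summary are frequent: 27.1% of the genes tested were tied between some libraries.

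The siAkt1 libraries were compared with siNT by a 2-fold rule of size and, in R 4.3.3, by a linear model in limma 3.58.1 with empirical Bayes moderation, two-sided, with p-values adjusted by Benjamini-Hochberg over 12779 genes. The single siNT library is assumed to vary like the siAkt1 libraries. Steps were tested on simulated data. Members, gene lists and alternatives were chosen with earlier results of these data known. Named were all members, AKT1 and AKT2, and of further lists the genes at least 2-fold from siNT with both siRNAs and up to 6 others with either. KRT5, EPCAM, KRT14, PTPRC, COL3A1, PDGFRB, CD68, CSF1R, CD79A, PECAM1, VWF and TIE1 were chosen after their values were seen.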

Additional observations from a re-analysis of the deposited data

Results flagged for a closer look

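GADD45B was at least 2-fold higher than siNT with siAkt1-22 (1.15) and at least 2-fold lower with siAkt1-58 (-1.34), so the libraries that share a genotype label moved to opposite sides. That difference was not tested, since each siRNA has 1 library. The stress kinase SGK1 took the same sides, at 0.87 and -2.24.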

How the results depend on the processing

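With each gene's probe sets averaged, 3 members were at least 2-fold higher with siAkt1-22 in place of 5. BCL6 (0.78), GADD45B (0.70) and SOD2 (0.51) then fell short of 2-fold and YPEL3 (1.39) passed it. Under the same setting 0 in place of 1 were lower with siAkt1-58, and 1 in place of 3 was lower with siAkt1-22 than with siAkt1-58. At a limit of 1.5-fold, counts were 9 members higher with siAkt1-22, 3 higher and 2 lower with siAkt1-58, and 1 higher with both (3.85%, background 3.20%). Shares of all genes at 1.5-fold with a single siRNA were not computed, so the counts for single siRNAs have no background and say nothing particular of the members. With one siAkt1 library left out, the rule for both siRNAs becomes the rule for the other siRNA alone. Its counts therefore repeat those given earlier and are no further check. They were 0 higher and 1 lower without siAkt1-22, and 5 higher and 3 lower without siAkt1-58. Most members past 2-fold were thus so in the siAkt1-22 library. The cause was not tested. Median centring, quantile normalization, no filter, a stricter filter and removal of tied genes left each of these counts within 1.5 times and the medians of the members within the spread between siRNAs. Of 60 single differences of members, 20 moved by more than the spread between siRNAs with averaged probe sets, 12 with centring and 10 with quantile normalization. The moves under centring and quantile normalization were all of genes whose siAkt1 values tie, where the spread is 0 and any shift counts. KLF2 turned to -0.07 with both siRNAs when averaged. Limma called 0 members under each of these settings and with eBayes trend or robust options, and with one siAkt1 library left out it has no residual degree of freedom and gives no test. No difference of at least 2-fold from siNT changed sign under averaging, centring or quantile normalization. Near 0, RBL2 with siAkt1-58 turned to 0.06 when averaged and TRIB1 with siAkt1-58 to 0.0025 under quantile normalization. The alternatives for the counts comparing the siRNAs directly were added after seeing the data. No paired analysis was possible because the single siNT library shares no replicate pairing with the siAkt1 libraries. Among the members, dim signal limits SESN3, KLF9, PDK4, S1PR1, PIK3IP1, TNFSF10 and TRIB2.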

Other observations

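IGFBP1, an insulin-responsive FOXO target of liver, lay below the filter level on average. It read 3.06 with siAkt1-22 and 3.31 with siAkt1-58, against 4.14 with siNT, and was chosen for mention after its values were seen. The liver FOXO target PCK1 and the death ligand FASLG were dim and had the same value in all 3 libraries (3.32 and 3.73).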
